A study of Mus musculus with 12 samples.

Results

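The 32 genes described here encode the proteins that carry glucose through glycolysis to lactate, together with genes that low oxygen induces. They were chosen by name, with earlier results of these data known. All 32 were present among the 32285 gene symbols of the expression matrices. The set holds 3 transporters, 15 glycolytic enzymes when the regulator Pfkfb3 is counted with them, 12 hypoxia-induced genes, and Hif1a with Mif. Expression was measured by droplet single-cell RNA sequencing from the 5′ end of transcripts (10x Genomics) in T cells sorted from tumours. C57Bl/6 mice carried subcutaneous tumours grown from 300000 cells of MCA205, a mouse fibrosarcoma line. All 6 mice received oxaliplatin, a platinum chemotherapy, at 10 mg/kg on day 8, and 200 µg of anti-PD1, an antibody against an inhibitory receptor of T cells, 8 days after that. Of these mice, 3 received a neutralizing antibody against ACBP/DBI (acyl-CoA-binding protein, also called diazepam-binding inhibitor) and 3 an IgG2a isotype control. The dose was 2.5 mg/kg for both antibodies, repeated at intervals of 2 days. Their course began 2 days ahead of oxaliplatin and stopped 1 day short of anti-PD1. Both groups therefore carried chemotherapy and immunotherapy, and no tumour without them was compared. Tumours were taken 2 days after anti-PD1, and CD4+ and CD8+ cells were combined in equal numbers, so the ratio of the lineages was set by the sort. The labels used here state no age for the mice.

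Glycolysis splits glucose to pyruvate in the cytosol, and lactate dehydrogenase turns pyruvate into lactate, which leaves the cell through monocarboxylate transporters. Activated T cells take up more glucose and run this pathway at a high rate even with oxygen present. When oxygen is low, prolyl hydroxylases of the Egln family no longer mark the alpha subunit of hypoxia-inducible factor (HIF) for degradation, and HIF then raises transcription of many glycolytic genes and of genes such as Pdk1, Bnip3 and Vegfa. Signalling through the T cell receptor and mTOR also raises HIF in T cells. Several steps of the pathway have paralogous genes, as for Slc2a1 and Slc2a3 or Hk2 and Hk1.

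HIF binds a short DNA element, and its core, ACGTG or GCGTG, was searched on both strands in the 250 bases upstream of the transcript starts listed by RefSeq (mouse build GRCm38.p6). On the opposite strand the core reads CACGT or CACGC, and a stretch such as CACGTG, which holds a core on each strand, counts as 2 overlapping matches. RefSeq promoters were matched for 29 of the 32 genes, 42 promoters in all. Slc2a3, Bnip3l and Ndrg1 were not matched. The core was present in 31 of these 42 promoters (73.8%), against 12679 of all 32851 promoters of the same length (38.6%), which were not matched for base composition. It was present in 73.7% of the 19 promoters of genes that were lower with anti-ACBP in at least 1 cluster and in 73.9% of the 23 promoters of the other genes. The promoters of 3 genes that were lower in several clusters and of Ldha, which was lower in none, are shown 5′ to 3′ on the gene's strand, with each core in capitals. The letters describe sequence only, not binding.
Slc2a1, chr4:119108495-119108744, plus strand: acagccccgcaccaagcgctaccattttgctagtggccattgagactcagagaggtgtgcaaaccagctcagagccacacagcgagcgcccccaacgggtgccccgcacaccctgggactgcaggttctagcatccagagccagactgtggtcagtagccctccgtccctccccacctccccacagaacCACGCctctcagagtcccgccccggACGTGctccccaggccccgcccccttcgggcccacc
Hilpda, chr6:29272376-29272625, plus strand: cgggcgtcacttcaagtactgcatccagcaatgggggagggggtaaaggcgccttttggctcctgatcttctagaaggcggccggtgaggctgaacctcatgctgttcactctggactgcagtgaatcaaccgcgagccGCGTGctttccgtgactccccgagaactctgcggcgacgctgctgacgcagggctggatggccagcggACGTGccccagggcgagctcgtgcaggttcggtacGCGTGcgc
Ankrd37, chr8:45999851-46000100, minus strand: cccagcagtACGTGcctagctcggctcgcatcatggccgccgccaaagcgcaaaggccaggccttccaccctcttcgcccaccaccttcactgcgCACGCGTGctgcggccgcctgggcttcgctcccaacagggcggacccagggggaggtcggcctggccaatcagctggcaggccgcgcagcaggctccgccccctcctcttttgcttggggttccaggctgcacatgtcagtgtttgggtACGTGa
Ldha, chr7:46845554-46845803, plus strand: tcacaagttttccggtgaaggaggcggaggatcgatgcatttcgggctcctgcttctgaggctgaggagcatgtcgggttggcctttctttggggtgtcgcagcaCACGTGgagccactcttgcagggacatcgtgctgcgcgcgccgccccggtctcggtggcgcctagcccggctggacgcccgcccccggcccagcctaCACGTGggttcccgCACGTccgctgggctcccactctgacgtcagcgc
The Slc2a1 promoter held 2 matches, that of Hilpda 3, that of Ankrd37 4 and that of Ldha 5. RefSeq lists a second Hilpda promoter (chr6:29272238-29272487), which held 0 matches, and a second Ldha promoter (chr7:46846832-46847081), which held 1, and the one with the most matches is shown for each. In the Ankrd37 promoter, 2 of the matches overlap within 1 run of capitals. In the Ldha promoter shown, each run CACGTG holds 2 overlapping matches.

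The deposited cell table kept 30749 of 69249 barcodes, 2923 to 7238 per library, with 27791735 to 65519423 UMIs (unique transcript molecules) per library. The median UMI count per cell was 4556 and 4516 in isotype libraries 2 and 3, and 6602.5 or more in the other 4 libraries. Cells that carried a barcode found in more than 1 library numbered 1078, and pairs of libraries shared 15 to 63 barcodes. The table gives clusters 0 to 8 as numbers. By summed markers, clusters 0, 3 and 6 were rich in Cd8a and Cd8b1, cluster 3 also in granzymes C to G and cluster 6 in cytotoxic genes, while cluster 1 was rich in Cd4 and in markers of naive or stem-like cells. Cluster 2 carried regulatory T cell markers such as Foxp3, cluster 4 cell division genes, cluster 5 cytokine genes, cluster 7 type 2 helper genes and cluster 8 heat-shock genes. Levels below are UMIs summed over the cells of a cluster in 1 mouse, scaled to 1000000 UMIs of all genes other than receptor and immunoglobulin segments (CPM). Over all cells, the 7 fibroblast and tumour markers together reached 0.36 to 0.50 CPM with isotype and 0.67 to 2.96 with anti-ACBP, and the 8 macrophage markers 11.6 to 13.5 and 11.7 to 14.3, with Adgre1 at 0. The 4 endothelial markers reached 18.9 to 21.7 with isotype and 11.5 to 17.6 with anti-ACBP, lower without overlap. The groups overlapped for the 4 natural killer cell markers (14.4 to 15.5 and 9.08 to 17.0), the 6 dendritic cell markers (3.51 to 9.82 and 5.17 to 10.4, Clec9a at 0) and the 4 neutrophil markers (0 to 0.245 and 0 to 0.264). Their part in the differences below was not tested. In summed counts, fewer cells with a transcript and fewer transcripts per cell cannot be told apart.

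With anti-ACBP, 14 of the 32 genes were lower in at least 1 cluster and none was higher in any. The 14 were the transporters Slc2a1 and Slc16a3, the glycolytic genes Hk2, Pfkl, Pfkfb3, Tpi1, Pgam1 and Eno3, and the hypoxia-induced genes Pdk1, Hilpda, Ankrd37, P4ha1, Kdm3a and Egln1. Slc2a1 was lower in 7 of the 9 clusters and Pgam1 in 5. Genes were called with edgeR's quasi-likelihood test on the summed counts (n = 3 mice per group), at a Benjamini-Hochberg adjusted p under 0.05 over all genes of a cluster. In all, 42 of 271 tests of a gene in a cluster were called. Of all genes tested, 0.046% (cluster 5) to 1.76% (cluster 2) were lower in a cluster. The share of all genes lower in at least 1 cluster was not counted. Because the members were chosen with earlier results of these data known, counts set beside all genes are a description.

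The count was highest in cluster 4, where every cell was in S or G2M phase, with 11 of 31 genes lower, where 0.593% of all genes tested were lower. The cell table has a column named DF1, which the labels do not explain, and in cluster 4 it was FALSE for 31.2%, 7.75% and 19.9% of the cells of the isotype mice and for 81.0%, 26.9% and 81.7% of those of the anti-ACBP mice. With DF1 TRUE cells only, 6 members were lower in cluster 4, where 21 of all genes were called against 93 with all its cells, and Hk2, Pfkfb3, Pdk1, Kdm3a and Egln1 no longer passed. Cluster 2 had 9 of 31 (all genes, 1.76%), cluster 6 had 7 of 29 (0.607%), cluster 0 had 5 of 31 (0.518%) and cluster 3 had 4 of 32 (0.176%). Cluster 7 had 3 of 30 (0.197%), cluster 1 had 2 of 31 (0.0768%) and cluster 5 had 1 of 30 (0.046%). In cluster 8, the smallest with 497 cells, edgeR called 0 of 26 (0.137% of all genes lower), with 2 at an unadjusted p under 0.05, both higher, and 0 called by DESeq2. Over all cells, 7 of 32 were lower (0.841%): Slc2a1, Hk2, Tpi1, Pgam1, Pdk1, Hilpda and Ankrd37. The clusters took unequal parts of the cells in the 2 groups: cluster 6 held 1.58 to 2.44% of the cells of an isotype mouse and 3.62 to 6.20% of those of an anti-ACBP mouse, and cluster 2 held 16.2 to 18.9% and 7.82 to 16.1%. Clusters 4 and 8 also held less of every anti-ACBP mouse, and the part of these shares in the values over all cells was not tested. No member was called higher by edgeR or by DESeq2, where 0.722%, 0.115%, 2.33%, 0.0415%, 0.326%, 0.161%, 1.94%, 0.242% and 0.41% of all genes were higher in clusters 0 to 8 and 1.54% over all cells, and the members higher at an unadjusted p under 0.05 were 1 each in clusters 5, 6 and 7 and 2 in cluster 8.

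These counts moved when 1 mouse was left out. In cluster 0 the count was 15 without isotype 2, and 1 without isotype 3, anti-ACBP 1 or anti-ACBP 2. In cluster 1 it was 4 without isotype 2, 1 without anti-ACBP 3, and 0 without isotype 3, anti-ACBP 1 or anti-ACBP 2. In cluster 2 it was 2 without isotype 3, 5 without anti-ACBP 1, 1 without anti-ACBP 2 and 3 without anti-ACBP 3. In cluster 3 it was 9 without isotype 1, 10 without isotype 2, and 2 without isotype 3 or anti-ACBP 2. In cluster 4 it was 19 without isotype 1, 5 without isotype 3, 7 without anti-ACBP 3, and 2 without anti-ACBP 1 or anti-ACBP 2. The single call of cluster 5, Slc2a1, was lost without isotype 2, isotype 3, anti-ACBP 1 or anti-ACBP 2. Cluster 6 had 13 without isotype 1, and cluster 7 had 1 without isotype 3, anti-ACBP 1 or anti-ACBP 3. Over all cells the count was 12 without isotype 2, 1 without anti-ACBP 3, and 0 without isotype 3, anti-ACBP 1 or anti-ACBP 2. The calls over all genes, in either direction, moved as well, so nothing about the members is read from these changes. Over all cells they were 297 with 6 mice, 404, 141 and 1 without isotype 1, 2 and 3, and 1, 25 and 10 without anti-ACBP 1, 2 and 3. In cluster 0 they were 134 with 6 mice, 342, 208 and 7 without each isotype mouse, and 27, 7 and 90 without each anti-ACBP mouse. With 1 mouse left out they ran from 2 to 164 in cluster 1 (20 with 6 mice), 52 to 822 in cluster 2 (425), 5 to 281 in cluster 3 (21), 14 to 277 in cluster 4 (93), 6 to 90 in cluster 5 (18), 81 to 351 in cluster 6 (185) and 7 to 52 in cluster 7 (29). Of the 42 calls of members, 12 passed with each library left out in turn: Slc2a1 in clusters 3, 4 and 6, Hk2 in clusters 0 and 3, Pdk1 in cluster 2, Hilpda in cluster 7, P4ha1 in cluster 4, and Ankrd37, Pfkl, Tpi1 and Pgam1 in cluster 6.

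**Figure D1:**
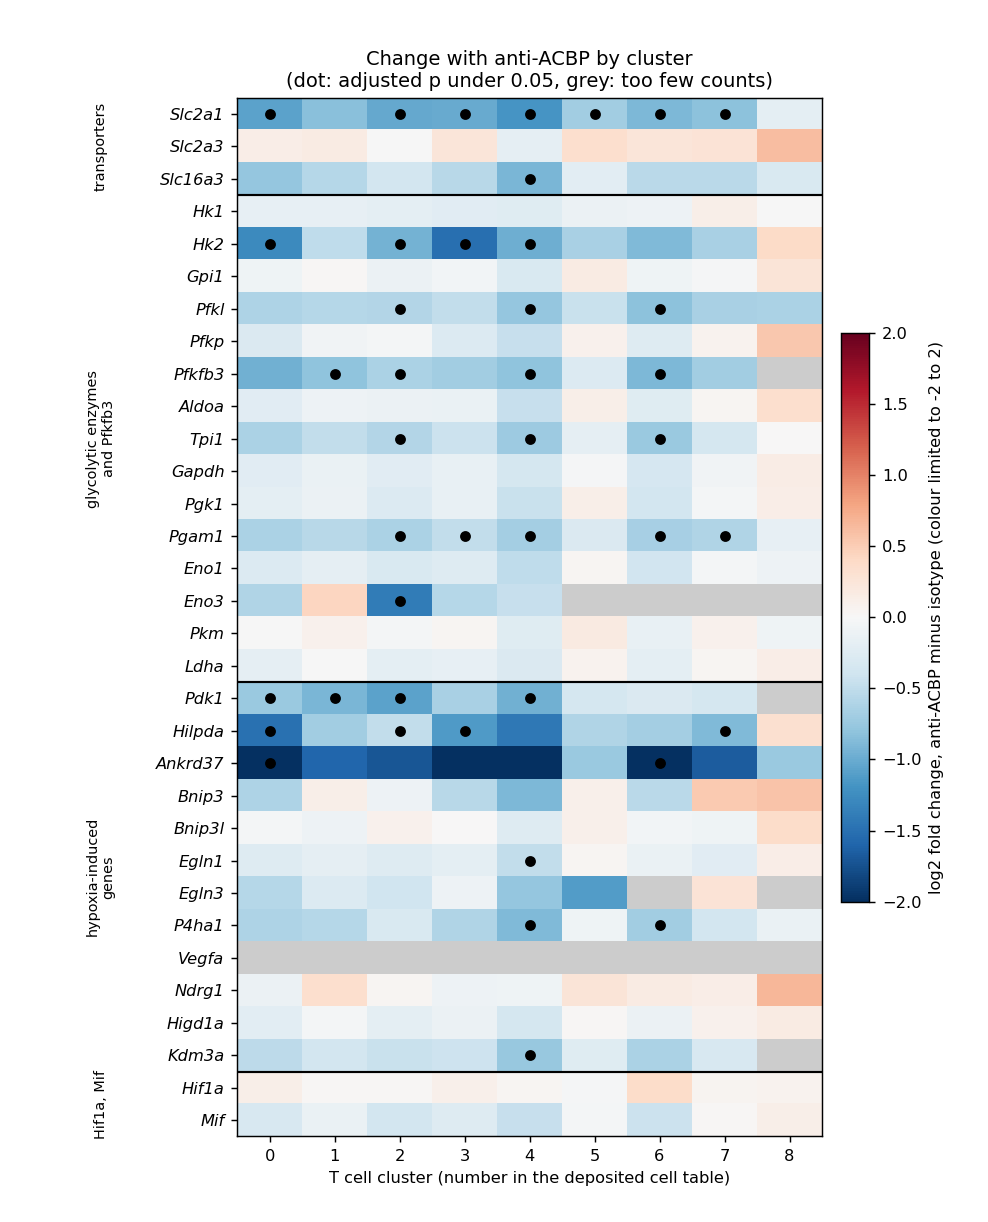
The grid gives the log2 fold change of each gene (lines of the grid, grouped by role) in each T cell cluster (columns), anti-ACBP minus isotype, with a dot where the adjusted p of edgeR was under 0.05 and grey where counts were too few. Vegfa in cluster 3, although tested, is also drawn grey because anti-ACBP libraries 2 and 3 held 0 UMIs. Dots are most frequent in cluster 4 with 11, absent in cluster 8, and mark Slc2a1 in 7 clusters.

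Slc2a1, the main basal glucose transporter, was the member lower in the largest number of clusters. In cluster 4 its level was 130, 107 and 123 CPM in the isotype mice and 47.2, 52.5 and 64.0 in the anti-ACBP mice, a log2 fold change of -1.18 (SE 0.12, adjusted p = 0.00052). The groups lay apart, with every anti-ACBP mouse far under every isotype mouse. In cluster 3 the levels were 137, 111 and 131 against 63.5, 60.1 and 70.4 (log2 fold change -1.004, SE 0.11, adjusted p = 0.000694). In cluster 6 the change was -0.90 (SE 0.15, adjusted p = 0.00215), from 117 ± 17.9 to 61.5 ± 3.04 CPM (mean ± SD, n = 3). Groups again did not overlap in clusters 3 and 6. In clusters 0, 2, 5 and 7 the changes were -1.06, -1.02, -0.70 and -0.81, with adjusted p of 0.0339, 0.0321, 0.0353 and 0.0293. Each of these 4 calls was lost when any of several mice was left out, while the log2 fold change stayed within -1.20 to -0.94 in cluster 0, -1.22 to -0.83 in cluster 2, -0.83 to -0.49 in cluster 5 and -0.93 to -0.69 in cluster 7 over all alternatives. Without isotype 3 the adjusted p was 0.177, 0.11, 0.162 and 0.0526, without anti-ACBP 1 it was 0.0999, 0.102, 0.161 and 0.0764, and without anti-ACBP 2 it was 0.115, 0.104, 0.169 and 0.0882. Without anti-ACBP 3 it was 0.127 in cluster 2 and 0.0795 in cluster 7, and without isotype 2 it was 0.138 in cluster 5. Cluster 1 had 142 ± 15.6 against 79.4 ± 18.9 without passing (adjusted p = 0.0847), and the level in cluster 8 was 160 ± 54.3 against 130 ± 24.0.

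Slc2a3, which encodes the other glucose transporter of the set, was called in no cluster. Its levels in cluster 3 were 119, 84.8 and 101 in the isotype mice and 140, 113 and 115 in the anti-ACBP mice, and the 2 groups overlapped. Its log2 fold changes ranged from -0.18 in cluster 4 to 0.62 in cluster 8. The log2 ratio of Slc2a1 to Slc2a3 was lower in every anti-ACBP mouse than in every isotype mouse in all 9 clusters, by 0.81 in cluster 8 to 1.25 in cluster 3. An exact permutation test of 3 against 3 mice, two-sided, cannot give a p below 0.1, which each of these 9 reached (adjusted p = 0.187 over 58 ratios of paralogues). Slc16a3, which exports lactate, fell in cluster 4 from 133, 130 and 169 to 65.9, 78.1 and 89.9 CPM (log2 fold change -0.92, adjusted p = 0.0211). That call was lost without anti-ACBP 1 (adjusted p = 0.0786) or anti-ACBP 2 (0.141). In cluster 0 its level was 147 ± 32.4 against 89.3 ± 14.3, which did not pass (adjusted p = 0.106).

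Hk2, the inducible hexokinase that traps glucose as its phosphate, had the largest fold change among the called glycolytic enzymes. In cluster 3 its level was 41.4, 46.4 and 41.1 CPM in the isotype mice and 15.6, 15.7 and 14.9 in the anti-ACBP mice (log2 fold change -1.504, SE 0.13, adjusted p = 0.000256). In cluster 0 it was 39.3, 49.4 and 50.9 against 19.2, 20.0 and 19.8 (-1.27, SE 0.11, adjusted p = 0.00162). The anti-ACBP mice were nearly alike in both clusters and lay far below the isotype mice. Hk2 also fell in cluster 2 (-0.94, adjusted p = 0.0119, and 0.0581 without anti-ACBP 2) and in cluster 4 (-0.98, adjusted p = 0.0321). In cluster 4 the call was lost without isotype 3 (adjusted p = 0.0823), anti-ACBP 1 (0.178), anti-ACBP 2 (0.0646) or anti-ACBP 3 (0.137). The levels in cluster 1, 82.9 ± 13.8 against 58.5 ± 10.7, did not pass (adjusted p = 0.174). Hk1, the constitutive hexokinase, was called in no cluster and its log2 fold changes lay between -0.24 and 0.11. The log2 ratio of Hk2 to Hk1 did not overlap between groups in clusters 0, 2, 3, 4 and 7 and overlapped in clusters 1, 5, 6 and 8 (exact permutation p = 0.1 in each of the first 5, adjusted p = 0.187). The ratio of Pfkl to Pfkp was lower without overlap in clusters 1, 2, 6, 7 and 8, and that of Bnip3 to Bnip3l in clusters 0, 3 and 4. That of Eno3 to Eno1 was so only in cluster 2. The ratio of Egln3 to Egln1 was lower by 1.81 in cluster 5 and higher by 0.67 in cluster 7, both without overlap. In the other clusters compared, these ratios overlapped. Ratios of other gene pairs were not taken.

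**Figure D2:**
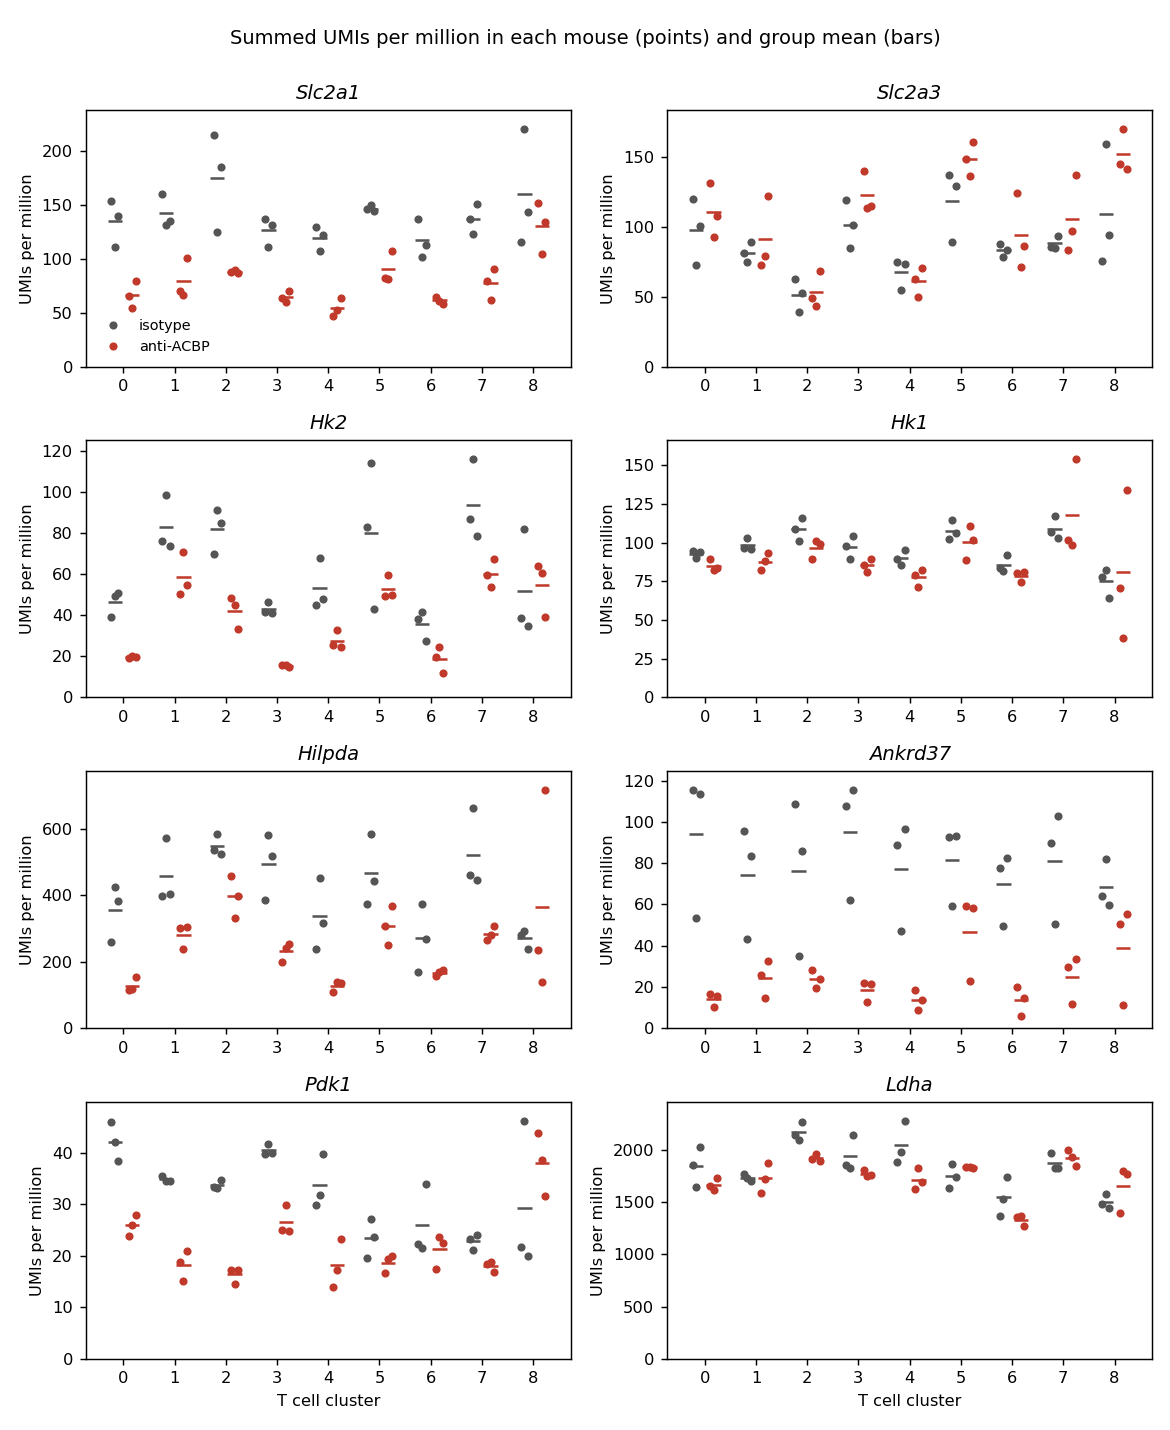
Each point is 1 mouse, as summed CPM in a cluster (horizontal axis), for 8 genes, with isotype in grey and anti-ACBP in red and the group mean as a bar. Slc2a1 and Hk2 in cluster 3 are apart between groups (60.1 to 70.4 against 111 to 137 for Slc2a1), while the groups overlap for Slc2a3 in every cluster.

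Phosphofructokinase is the committed step of glycolysis, and Pfkfb3 makes its activator fructose 2,6-bisphosphate. Pfkl, the liver-type subunit, fell in cluster 6 from 92.5, 80.2 and 88.8 CPM to 48.2, 48.7 and 49.6 (log2 fold change -0.82, SE 0.16, adjusted p = 0.00626). All 3 anti-ACBP values lay together under the isotype values. Pfkl also fell in cluster 2 (-0.59, adjusted p = 0.0277) and cluster 4 (-0.77, adjusted p = 0.0199). Without isotype 3, anti-ACBP 1, anti-ACBP 2 or anti-ACBP 3 the adjusted p was 0.0818, 0.0858, 0.101 and 0.0886 in cluster 2 and 0.0823, 0.142, 0.139 and 0.0597 in cluster 4, and it was 0.0528 in cluster 2 without isotype 1. Pfkp, the platelet-type subunit, was called in no cluster, with 288 ± 40.6 against 214 ± 14.4 in cluster 4 (adjusted p = 0.0744). Pfkfb3 fell in clusters 1, 2, 4 and 6, by 0.80, 0.63, 0.80 and 0.89 on the log2 scale. In cluster 1 its levels were 32, 30.5 and 31.1 against 18.1, 15.4 and 19.7 (adjusted p = 0.0392), and in cluster 6 they were 45.6, 38.6 and 50.1 against 25.4, 22.9 and 20.8 (adjusted p = 0.0262). The groups did not overlap in either cluster. In clusters 2 and 4 the adjusted p was 0.0425 and 0.0434. With cells thinned to 2000 UMIs the log2 fold change was -0.49 in cluster 1 (adjusted p = 0.336) and -0.25 in cluster 4 (adjusted p = 0.917), and with DF1 TRUE cells only it was -0.81 in cluster 4 (adjusted p = 0.274). None of the 4 calls passed without isotype 3 (adjusted p 0.159 in cluster 1, 0.157 in cluster 2, 0.159 in cluster 4 and 0.123 in cluster 6), anti-ACBP 1 (0.129, 0.102, 0.0786 and 0.0562), anti-ACBP 2 (0.126, 0.141, 0.197 and 0.0868) or anti-ACBP 3 (0.0852, 0.091, 0.165 and 0.0612). The call of cluster 2 was also lost without isotype 1 (0.118) and that of cluster 6 without isotype 2 (0.0522).

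Of the enzymes below phosphofructokinase, Tpi1 (triosephosphate isomerase) and Pgam1 (phosphoglycerate mutase) fell in several clusters. Tpi1 in cluster 6 was 660, 703 and 843 CPM in the isotype mice and 436, 435 and 419 in the anti-ACBP mice (log2 fold change -0.75, SE 0.10, adjusted p = 0.000456). It fell by 0.59 on the log2 scale in cluster 2 (adjusted p = 0.0102) and by 0.72 in cluster 4 (adjusted p = 0.00543). Pgam1 in cluster 6 was 527, 427 and 591 against 339, 305 and 318 (-0.66, SE 0.12, adjusted p = 0.00335). No anti-ACBP mouse overlapped the isotype mice for either enzyme in cluster 6. Pgam1 fell in clusters 2, 3, 4 and 7 as well, by 0.63, 0.49, 0.68 and 0.60, with adjusted p of 0.018, 0.0231, 0.00543 and 0.0334. Without anti-ACBP 2 the adjusted p was 0.0557 and 0.0628 for Tpi1 in clusters 2 and 4, and 0.0701, 0.116, 0.0637 and 0.0956 for Pgam1 in clusters 2, 3, 4 and 7. Without anti-ACBP 1 it was 0.0769 for Tpi1 in cluster 4, and 0.0574, 0.0728, 0.0786 and 0.0594 for Pgam1 in those clusters. Without isotype 3 it was 0.0513 for Tpi1 in cluster 2, and 0.074, 0.175 and 0.0651 for Pgam1 in clusters 2, 3 and 7. Without anti-ACBP 3 it was 0.0744, 0.107 and 0.14 for Pgam1 in clusters 2, 3 and 7, and without isotype 1 it was 0.0661 in cluster 7. Eno3, the muscle-type enolase, had few UMIs and fell in cluster 2, from 167, 82 and 118 UMIs to 27, 36 and 9 (log2 fold change -1.39, adjusted p = 0.0425). That call passed only with isotype 1 left out among the 6 left-out mice, with an adjusted p of 0.0508 without isotype 2, 0.104 without isotype 3, and 0.135, 0.0701 and 0.13 without anti-ACBP 1, 2 and 3.

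The other enzymes of the lower pathway were called in no cluster. Ldha, which makes lactate from pyruvate, had 1857, 1827 and 2147 CPM in the isotype mice of cluster 3 and 1811, 1749 and 1766 in the anti-ACBP mice (log2 fold change -0.16, adjusted p = 0.441). The anti-ACBP values lay just under the lowest isotype value. Across clusters the Ldha change ran from -0.29 in cluster 4 to 0.14 in cluster 8. Pkm (pyruvate kinase) ran from -0.24 to 0.18, Gpi1 (glucose phosphate isomerase) from -0.31 to 0.26, Aldoa (aldolase) from -0.46 to 0.33 and Pgk1 (phosphoglycerate kinase) from -0.44 to 0.14, all with their lowest value in cluster 4. Gapdh and Eno1 differed more between mice of 1 group than between groups: over all cells Gapdh was 2026, 2914 and 4237 in the isotype mice and 1918, 3026 and 3208 in the anti-ACBP mice. Library 1 was lowest in both groups for Gapdh and Eno1. Reads of these genes can be shared with near-identical copies, of which Eno1b is counted separately in the matrices (121 to 227 CPM over all cells), so their levels are uncertain.

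Among the hypoxia-induced genes, Ankrd37, an ankyrin-repeat protein gene known as a HIF target, had the largest fold changes of those called. In cluster 6 its level was 77.7, 49.3 and 82.3 CPM in the isotype mice and 20.1, 5.90 and 14.4 in the anti-ACBP mice (log2 fold change -2.20, SE 0.32, adjusted p = 0.00291). In cluster 0 it was 115, 53.6 and 113 against 16.4, 10.3 and 15.5 (-2.77, SE 0.36, adjusted p = 0.0399). Replicate 2 was the lowest mouse of its group each time, and the groups did not overlap in either cluster. In cluster 0 the adjusted p was 0.0593 without isotype 1, 0.127 without isotype 3, 0.109 without anti-ACBP 1, 0.126 without anti-ACBP 2 and 0.0654 without anti-ACBP 3. In cluster 3, 94.9 ± 28.9 against 18.6 ± 5.37 missed the threshold (adjusted p = 0.0515), and so did 77.4 ± 26.5 against 13.7 ± 4.82 in cluster 4 (adjusted p = 0.102). The spread among isotype mice, with isotype 2 low, was wide in all of these clusters.

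Hilpda, whose protein coats lipid droplets and inhibits lipolysis, fell in clusters 0, 2, 3 and 7. In cluster 7 it was 460, 663 and 446 CPM in the isotype mice and 265, 280 and 306 in the anti-ACBP mice (log2 fold change -0.89, SE 0.14, adjusted p = 0.00418). In cluster 0 it was 258, 425 and 382 against 114, 117 and 154 (-1.499, SE 0.19, adjusted p = 0.0299). The anti-ACBP mice were all below the isotype mice in both clusters. In cluster 3 the change was -1.13 (adjusted p = 0.0307), and in cluster 2 it was -0.49 at the edge of the threshold (adjusted p = 0.04996, from 549 ± 31.5 to 397 ± 62.8). Without isotype 3 the adjusted p was 0.138, 0.128 and 0.181 in clusters 0, 2 and 3, without anti-ACBP 2 it was 0.126, 0.138 and 0.0909, and without anti-ACBP 1 it was 0.0867 in cluster 0 and 0.0655 in cluster 3. In cluster 2 it was also 0.0991 without isotype 1, 0.067 without isotype 2 and 0.154 without anti-ACBP 3. In cluster 4 the levels were 239, 454 and 317 against 109, 138 and 136, a log2 fold change of -1.43 that did not pass (adjusted p = 0.153). The groups did not overlap there, and isotype 1 was the low isotype mouse.

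Pdk1, the kinase that keeps pyruvate out of the mitochondria by inhibiting pyruvate dehydrogenase, fell in clusters 0, 1, 2 and 4. In cluster 2 it was 33.4, 33.1 and 34.8 CPM in the isotype mice and 17.3, 14.6 and 17.3 in the anti-ACBP mice (log2 fold change -1.07, SE 0.13, adjusted p = 0.00334). Values within each group were close together, and the groups lay far apart. In clusters 0, 1 and 4 the changes were -0.75, -0.92 and -0.96, with adjusted p of 0.0201, 0.0282 and 0.0446. Without isotype 3 the adjusted p was 0.0862, 0.157 and 0.122 in these 3 clusters, without anti-ACBP 1 it was 0.0654, 0.113 and 0.167, and without anti-ACBP 2 it was 0.121, 0.0951 and 0.236. It was also 0.056 in cluster 1 without anti-ACBP 3 and 0.104 in cluster 4 without isotype 2. In cluster 3, 40.4 ± 1.11 against 26.6 ± 2.89 missed the threshold (adjusted p = 0.0531).

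P4ha1, a subunit of the collagen prolyl hydroxylase, Kdm3a, a histone demethylase, and Egln1, the main HIF prolyl hydroxylase, fell in cluster 4. P4ha1 was 78.6, 72.1 and 81.4 CPM there in the isotype mice and 40.8, 45.1 and 43.5 in the anti-ACBP mice (log2 fold change -0.88, SE 0.10, adjusted p = 0.000815). The groups lay well apart. P4ha1 also fell in cluster 6 (-0.70, adjusted p = 0.0448), and there it passed in 1 of the 6 fits with a mouse left out: the adjusted p was 0.0655 without isotype 2, 0.204 without isotype 3, and 0.159, 0.121 and 0.0814 without anti-ACBP 1, 2 and 3. Kdm3a was 41.9, 30.3 and 39.6 against 20.9, 19.7 and 27.8 in cluster 4 (-0.76, adjusted p = 0.0453), and Egln1 was 205, 199 and 242 against 148, 152 and 169 (-0.49, adjusted p = 0.0242). No anti-ACBP mouse reached the lowest isotype mouse for either gene. Without isotype 3, anti-ACBP 1 or anti-ACBP 2 the adjusted p was 0.165, 0.231 and 0.23 for Kdm3a and 0.104, 0.161 and 0.184 for Egln1, and it was 0.0597 for Egln1 without anti-ACBP 3. Egln3, another HIF prolyl hydroxylase, was called in none of 7 clusters tested, with log2 fold changes of -1.11 in cluster 5 to 0.28 in cluster 7.

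The remaining hypoxia-induced genes were called in no cluster. Bnip3, a mitophagy receptor, was 194, 214 and 272 CPM in the isotype mice of cluster 3 and 164, 140 and 167 in the anti-ACBP mice (log2 fold change -0.55, adjusted p = 0.109), and its changes ran from -0.89 in cluster 4 to 0.57 in cluster 8. Its relative Bnip3l ran from -0.26 to 0.37, Higd1a, a protein of the mitochondrial inner membrane, from -0.35 to 0.17, and Ndrg1, a stress-response gene, from -0.11 to 0.67. Vegfa, the vascular growth factor, was rare and, among the clusters, was tested only in cluster 3. Over all cells it had 238, 132 and 44 UMIs with isotype and 66, 5 and 0 with anti-ACBP. In cluster 3 it had 46, 44 and 27 against 22, 0 and 0 (adjusted p = 0.156). Its fitted folds rest on libraries with 0 UMIs and are not given. These UMIs were not scaled to depth, and isotype library 1 was the deepest. In clusters 1, 2 and 7, isotype libraries 2 and 3 held 0 Vegfa UMIs, while anti-ACBP library 1 held 11, 4 and 0. Hif1a itself, the oxygen-regulated subunit of HIF, was 597, 766 and 645 CPM over all cells in the isotype mice and 628, 640 and 748 in the anti-ACBP mice (log2 fold change 0.01, adjusted p = 0.972). The 2 groups overlapped. Its changes by cluster ran from -0.02 to 0.37, the highest in cluster 6 (adjusted p = 0.104). HIF1 alpha is regulated mainly through protein stability, which transcript counts do not measure. Mif, a cytokine gene and HIF target, ran from -0.46 in cluster 4 to 0.12 in cluster 8 and was not called.

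Set side by side, the glycolysis genes (18 with the transporters) and the hypoxia genes (14 with Hif1a and Mif) were compared by their medians. The median log2 fold changes were -0.28 and -0.52 in cluster 0, -0.46 and -0.76 in cluster 4, -0.29 and -0.31 in cluster 2, -0.26 and -0.34 in cluster 3, and -0.37 and -0.36 in cluster 6, over the members tested in each. In clusters 1, 5, 7 and 8 the medians were -0.15 and -0.18, -0.02 and -0.04, -0.04 and -0.08, and 0.08 and 0.15. The median of the hypoxia genes was -0.32 in cluster 0 and -0.20 in cluster 2 without isotype 1, and -0.34 in cluster 1 without anti-ACBP 3. The median of all genes tested was -0.01 to 0.00 in each cluster. Without the transporters, Hif1a and Mif, the medians of the enzymes and of the hypoxia-induced genes were -0.28 and -0.56 in cluster 0. They were -0.13 and -0.27 in cluster 1, -0.28 and -0.31 in cluster 2, and -0.26 and -0.48 in cluster 3. In clusters 4, 5 and 6 they were -0.46 and -0.77, 0.01 and -0.08, and -0.35 and -0.42. Clusters 7 and 8 had -0.04 and -0.23, and 0.14 and 0.24. The difference between the sets was not tested in either form. Called in at least 1 cluster were 8 of the 18 glycolysis genes and 6 of the 14 hypoxia genes, for which no share over all genes was counted. By cluster the calls were 7 and 2 in cluster 2 (1.76% of all genes lower), 7 and 4 in cluster 4 (0.593%) and 5 and 2 in cluster 6 (0.607%). They were 3 and 1 in cluster 3 (0.176%) and 2 and 3 in cluster 0 (0.518%).

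Summed UMIs, which weight each gene by its count, gave a smaller relative difference for the enzymes than for the hypoxia-induced genes. Over all cells the 15 enzyme genes summed to 12139, 12649 and 15816 CPM in the isotype mice and 10948, 11988 and 12966 in the anti-ACBP mice, a mean that was 11.6% lower, and the groups overlapped. The 12 hypoxia-induced genes summed to 1671, 1601 and 1792 against 1252, 1177 and 1304, 26.3% lower, without overlap. The 3 transporters summed to 428, 307 and 398 against 254, 250 and 298, 29.2% lower and without overlap. In cluster 4 the enzymes were 23.1% and the hypoxia-induced genes 37.3% lower, with no overlap for the hypoxia-induced genes. In cluster 5 the enzyme sums were 12799 ± 1422 and 13113 ± 1463, which overlapped. The hypoxia-induced genes were 11.8% lower there and overlapped as well (1458, 1634 and 1544 against 1371, 1235 and 1482). In cluster 8 the means were higher with anti-ACBP, at 12190 against 13319 for the enzymes and 1352 against 1608 for the hypoxia-induced genes, and the groups overlapped for both. No test was made on these sums.

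Groups did not overlap, with every anti-ACBP mouse below every isotype mouse, for 24 of 31 members in cluster 4 (7.28% of all genes tested), 15 of 32 in cluster 3 (6.22%), 13 of 31 in cluster 2 (12.2%), 13 of 29 in cluster 6 (9.86%) and 12 of 31 in cluster 0 (7%). The counts were 10 of 31 in cluster 1 (9.59%), 9 of 30 in cluster 7 (6.7%), 6 of 30 in cluster 5 (6.89%) and 1 of 26 in cluster 8 (7.48%), the last being Ankrd37, and 17 of 32 over all cells (14.2%). The opposite order was found for Bnip3l in cluster 2 (14.7% of all genes), Gpi1 and Pkm in cluster 5 (7.85%), Hif1a in cluster 6 (10.1%) and Aldoa and Ndrg1 in cluster 8 (7.65%). It was found for no member in clusters 0, 1, 3, 4 and 7, where 15.1%, 9.97%, 11.2%, 10.6% and 7.53% of all genes had it. Since the members were chosen with earlier results of these data known, these counts are a description and not an independent test.

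Whether the change of a gene differed between clusters was tested for clusters 0, 1 and 2 with the mouse as a block. The change of Ankrd37 was less negative in cluster 1 than in cluster 0, by 1.16 on the log2 scale (SE 0.13, adjusted p = 0.000408), the only one of 32 members called, where 0.0639% of all genes were higher by this test. It was also less negative in cluster 2 than in cluster 0, by 1.13 (SE 0.16, adjusted p = 0.00665), again the only one of 32 (0.44% of all genes). Ankrd37 in the anti-ACBP mice was 25.6, 14.6 and 32.6 CPM in cluster 1 and 28.3, 19.4 and 23.8 in cluster 2, against 16.4, 10.3 and 15.5 in cluster 0, while the isotype ranges of the 3 clusters overlapped. Both results passed with each mouse left out. For Hk2 the difference between clusters 1 and 0 was 0.74, which did not pass (adjusted p = 0.0537). Without isotype 1, the count of called members was 3 for clusters 0 and 1 and 2 for clusters 0 and 2. Between clusters 1 and 2, edgeR called 0 of 31 members (0.751% of all genes in either direction), with 5 at an unadjusted p under 0.05, and 2 without anti-ACBP 1. No other pair of clusters was tested.

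The share of cells with at least 1 UMI was taken after each cell was thinned to 2000 UMIs, which left out 1040 shallower cells. Hilpda was found in 40.1%, 51.2% and 45.9% of the isotype cells and in 26.4%, 26.0% and 29.4% of the anti-ACBP cells over all clusters. The shares for Slc2a1 were 23.8 ± 2.51% and 13.1 ± 1.41%, for Hk2 11.04 ± 1.49% and 5.72 ± 0.46%, and for Pdk1 6.92 ± 0.30% and 4.20 ± 0.41% (mean ± SD, n = 3). Groups did not overlap for any of the 4 genes. All 4 had been called lower over all cells on the same counts, so their shares are no separate support. Shares of other genes were not taken. Without thinning, the mean shares were 68.4% and 54.7% for Hilpda, 50.4% and 37.9% for Slc2a1, 26.5% and 17.2% for Hk2, and 19.5% and 15.6% for Pdk1. The sorted T cells hold no class known to lack these genes, and the part of free RNA in the shares was not tested. Nor was the part of the clusters' unequal portions of the cells in the 2 groups.

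Fewer anti-ACBP cells were in S or G2M phase by the authors' calls, 22.8 to 25.6% against 29.0 to 37.6% of the isotype cells, and in cluster 2 14.7 to 21.5% against 29.99 to 34.97%. In cluster 0 the shares were 18.4 to 19.9% and 20.1 to 33.0%. With only G1 cells, 4 members were lower in cluster 0, 1 in cluster 1, 5 in cluster 2, 4 in cluster 3, 2 in cluster 5, 6 in cluster 6 and 3 in cluster 7, and 4 over all cells. Of all genes tested in G1 cells, those called in either direction were 116 of 10447 in cluster 0, 23 of 10136 in cluster 1, 161 of 9468 in cluster 2, 46 of 9169 in cluster 3, 23 of 7838 in cluster 5, 101 of 6208 in cluster 6, 31 of 6256 in cluster 7 and 219 of 11883 over all cells. Of 40 cell division genes, with cells of every phase, 14 were lower with anti-ACBP in cluster 2 (1.76% of all genes) and 5 over all cells (0.841%). In cluster 0, 4 of 38 tested were lower (0.518%), with 2 of 18 in cluster 8 (0.137%), 1 of 29 in cluster 6 (0.607%) and 1 of 27 in cluster 7 (0.197%). In clusters 1, 3, 4 and 5 edgeR called 0, with 7, 7, 8 and 5 lower and 2, 0, 3 and 0 higher at an unadjusted p under 0.05. Slc2a1 in cluster 2 had a log2 fold change of -1.14 in G1 cells against -1.02 in all its cells, but the adjusted p was 0.0552. Cluster 4 has no G1 cells, so its calls could not be repeated this way.

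Levels differed between clusters over the 6 mice, as a description with no test because the clusters were made from expression. Means, SDs and overlaps here take both groups together, so differences between the groups enter them. Apart from the rare Eno3 and Vegfa, Bnip3 had the widest range of means, 192 ± 46.9 CPM in cluster 3 and 37.9 ± 10.5 in cluster 7 (mean ± SD, n = 6), a ratio of 5.07. The order ran from clusters 3 and 2 through 0, 8, 4, 6 and 5 to 1 and 7, and only clusters 5 and 1 were neighbours without overlap. Cluster 2, rich in regulatory T cell markers, had the highest Slc16a3 (206 ± 44.2), Ndrg1 (102 ± 16.1), Egln3 (29.3 ± 6.33), Hilpda (473 ± 94.6) and Pkm (1949 ± 48.0), and Pkm there lay above every mouse of cluster 5, the next in order at 1506. Cluster 6, richest in cytotoxic genes, had the lowest values of Slc16a3 (80.7), Ndrg1 (34.6), Egln3 (7.87), Hilpda (219), Pkm (1155), Ldha (1441) and Hk2 (27.2). Hk2 was highest in cluster 7 (77.0 ± 22.6) and cluster 1 (70.7), which overlapped, and was 2.83 times its level in cluster 6.

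Hif1a was highest in cluster 1 (989 ± 110 CPM) and lowest in cluster 3 (438 ± 31.3), above in 6 of 6 mice. Pgk1 and Eno1 were highest in cluster 3, at 989 ± 68.6 and 1047 ± 293, and lowest in cluster 2, at 637 and 621. Gpi1 and Aldoa were highest in cluster 0 (876 ± 79.3 and 2755 ± 336). Slc2a3 was highest in cluster 5 (134 ± 24.5) and lowest in cluster 2 (52.7 ± 11.2), in 6 of 6 mice. Slc2a1 differed less, from 145 ± 41.0 in cluster 8, which held as few as 14 cells in a library, to 87.2 ± 36.9 in cluster 4. No neighbours in the order of Slc2a1 lay apart. The smallest range belonged to Higd1a, at a ratio of 1.27 between clusters 8 and 6.

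**Figure D3:**
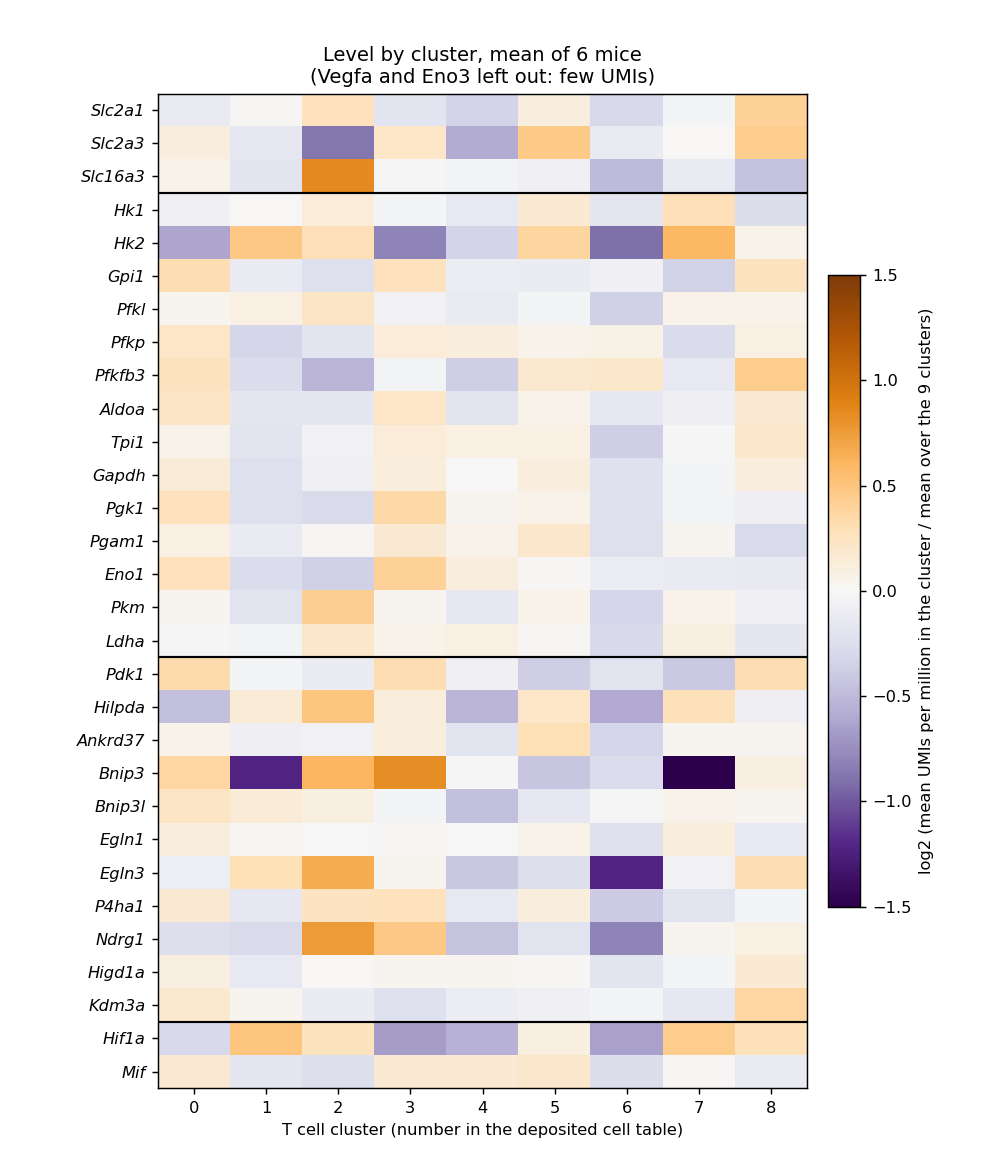
The grid gives, for 30 genes, the log2 of the mean level in a cluster (6 mice) over the gene's mean across the 9 clusters (columns). Bnip3 is high in cluster 3 and low in clusters 1 and 7, Hif1a is high in cluster 1, and cluster 6 is low for many genes.

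Clusters 1 and 5 held cells of both lineages, and CD8 cells were compared there with CD4 cells of the same mouse, sorted by their Cd4, Cd8a and Cd8b1 UMIs after cells with a Foxp3 UMI were left out. CD4 cells had more Hilpda, Hk2, Hk1, Pfkl, Egln3, Hif1a, Ldha and Pkm in both clusters. The log2 difference of Hk1, CD8 minus CD4, was -0.32 in cluster 1 and -0.57 in cluster 5. In cluster 1, 11 of 30 members were lower in CD8 cells (9.89% of all genes) and 2 were higher (10.3%), and in cluster 5, 10 of 30 were lower (10.5%) and 3 higher (11.2%). Hilpda was 206 ± 86.9 CPM in the CD8 and 420 ± 129 in the CD4 cells of cluster 1 (log2 difference -0.999, SE 0.10), and 254 ± 88.4 and 569 ± 166 in cluster 5 (-1.16, SE 0.10), lower in 6 of 6 mice each time. Hk2 was lower in CD8 cells by 0.64 in cluster 1 and 1.24 in cluster 5, and Hif1a by 0.51 and 0.80, again in 6 of 6 mice. Pfkfb3 was higher in CD8 cells of both clusters, by 0.48 and 0.52 (adjusted p = 0.0069 and 0.032), in 6 and 5 of 6 mice. Kdm3a was higher in CD8 cells of cluster 1 (0.41), and P4ha1 (0.51) and Gpi1 (0.33) in those of cluster 5. In cluster 5, Slc2a1 was 97.4 ± 14.2 in CD8 and 148 ± 61.4 in CD4 cells (-0.51, adjusted p = 0.0107), lower in 5 of 6 mice.

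Within clusters, cells in S or G2M phase had less of many members than G1 cells of the same mouse. In cluster 2, 21 of 31 members were lower (30.9% of all genes) and 3 higher (27.7%), in cluster 0, 21 of 31 (16.7%) and 1 (17.3%), and in cluster 3, 16 of 31 (14.5%) and 2 (19.8%). In cluster 1, 15 of 30 were lower (5.03%) and 0 higher (7.46%), and in cluster 6, 5 of 27 (5.99%) and 0 (8.74%), by edgeR, with 20 members in cluster 1 and 10 in cluster 6 at an unadjusted p under 0.05 in either direction. Gpi1, Aldoa, Bnip3l, Ndrg1 and Hif1a were lower in all 5 clusters. Bnip3l in cluster 2 was 159 ± 8.38 CPM in S or G2M cells and 256 ± 11.4 in G1 cells (log2 difference -0.67, SE 0.06), lower in 6 of 6 mice. Bnip3 (-0.84), Slc16a3 (-0.70) and Hilpda (-0.53) were also lower there in 6 of 6 mice, and the Bnip3 levels were 110 ± 37.5 and 199 ± 34.5.

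Hk2, Pgam1, Ldha, Higd1a, Mif and Eno3 were called lower in S or G2M cells of none of the clusters in which they were tested, 4 for Hk2, 3 for Eno3 and 5 for the others. Vegfa had too few counts for this comparison in every cluster. Eno3 was higher in clusters 0, 2 and 3, by 1.00, 1.06 and 1.28 on the log2 scale, in 6 of 6 mice each. Its level in cluster 3 was 14.2 ± 4.07 CPM in S or G2M cells and 5.93 ± 1.84 in G1 cells. Ldha was higher by 0.11 in clusters 2 and 3 (adjusted p = 0.042 and 0.00241), in 5 of 6 mice each. Mif was higher in cluster 2 by 0.43, from 924 ± 95.7 in G1 to 1220 ± 197 in S or G2M cells, in 6 of 6 mice. Deposited phase calls were taken as given, and the median depth of cells in the phases was not matched.

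**Figure D4:**
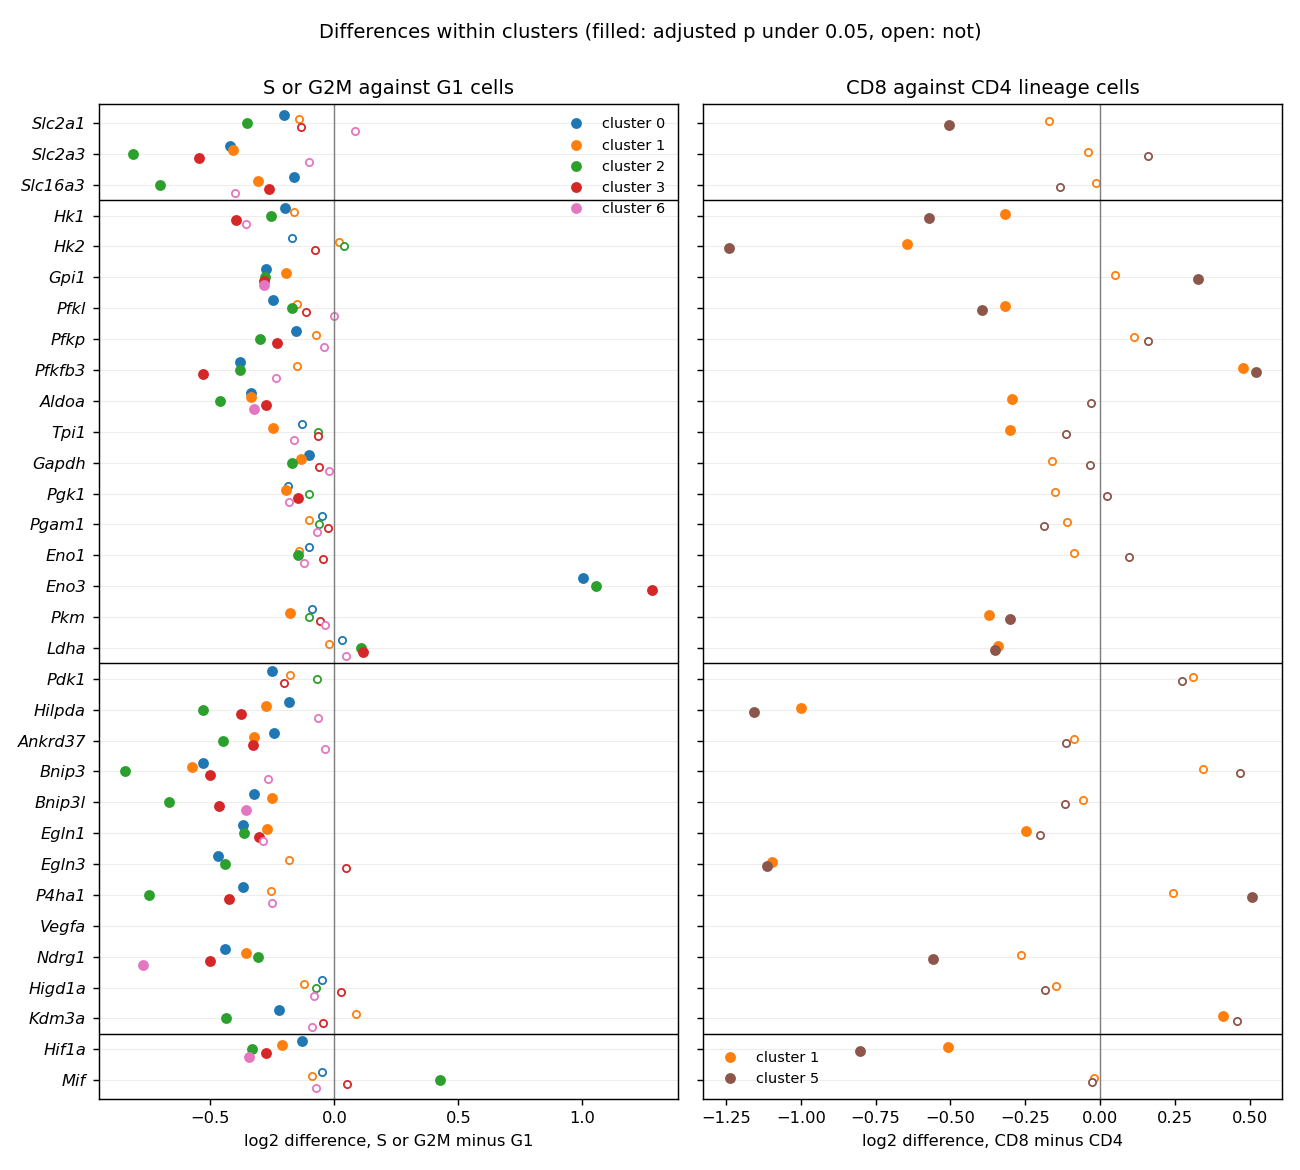
Log2 differences within clusters for each gene, S or G2M minus G1 cells on the left and CD8 minus CD4 lineage cells on the right, with colours for clusters and filled points where the adjusted p was under 0.05. Most points on the left lie below 0, with Eno3 at 1.00 to 1.28 on the other side, and Hilpda, Hk2, Egln3 and Hif1a lie below 0 on the right.

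Of 34 other genes of glycolysis and pyruvate use, edgeR called none with anti-ACBP in any cluster (7 to 26 tested in a cluster), with at most 4 lower and 3 higher at an unadjusted p under 0.05, and DESeq2 called 0 in the clusters and 2 over all cells. Of 43 other genes of the HIF pathway (12 to 34 tested in a cluster), 3 were called in clusters, all lower. The calls were 3 of 34 in cluster 0 (0.518% of all genes lower), 2 of 31 in cluster 2 (1.76%) and 2 of 31 in cluster 4 (0.593%). They were 1 of 33 in cluster 1 (0.0768%), 1 of 33 in cluster 3 (0.176%), 1 of 26 in cluster 6 (0.607%) and 1 of 22 in cluster 7 (0.197%). At an unadjusted p under 0.05, 14 were lower and 2 higher in cluster 0, 7 and 4 in cluster 1, 7 and 5 in cluster 2, 9 and 1 in cluster 3, and 10 and 2 in cluster 4. Ddit4, an inhibitor of mTOR induced by stress, fell in clusters 0, 1, 2, 3, 4, 6 and 7, and over all cells from 600 ± 43.9 to 215 ± 22.0 CPM (log2 fold change -1.48, SE 0.09, adjusted p = 0.00266). Ppp1r3b, a glycogen-targeting phosphatase subunit, fell in clusters 0 and 2 (-1.87 and -1.04), and Rbpj, the Notch pathway transcription factor, in clusters 0 and 4 (-0.47 in both). Angptl4 was higher over all cells, 5.71 ± 0.62 against 10.7 ± 2.28 (log2 fold change 0.91, adjusted p = 0.0483). None of 26 nuclear genes for respiratory chain subunits was called by edgeR in any cluster, with at most 2 lower and 1 higher at an unadjusted p under 0.05, and 0 by DESeq2 in the clusters.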

How the data were processed

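Gene expression was measured in 6 libraries of sorted tumour T cells, 3 per group. The authors deposited raw UMI counts per gene and cell for each library and a table of the cells kept, with cluster, cell cycle phase and a column DF1 that the labels used here do not explain. Reads were processed with Cell Ranger 7.0.0 and Seurat against mm10, per the submitters' processing notes. The members and gene lists were chosen with earlier results of these data known. All 32 members are accounted for; per-mouse values are given for those called in at least 1 cluster, and other list genes are named where called.

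Counts were summed per mouse and cluster over the deposited cells, leaving out 651 receptor and immunoglobulin segments, in clusters with at least 10 cells per library. Sums held 27791735 to 65519423 UMIs per library over all cells. They were tested with edgeR 4.0.16 (limma 3.58.1, R 4.3.3; TMM factors, filterByExpr, robust quasi-likelihood test), with Benjamini-Hochberg adjustment over all genes and a threshold of 0.05. Comparisons of lineages, of phases and of changes between clusters had the mouse as a block; a lineage or phase needed at least 30 cells in every library. Lineages were set by whether Cd8a and Cd8b1 UMIs outnumbered Cd4 UMIs or the reverse. The labels do not say more of the mice than their group, so p-values measure the spread between these 6 samples. Alternatives were DESeq2 1.42.0, other factors and filters, a replicate block, G1 cells only, cells with DF1 TRUE only, cells thinned to 2000 UMIs, and each library left out. No further doublet removal was made. Levels, ratios and figures used Python 3.11.15 with numpy 2.4.6, pandas 2.3.3, scipy 1.17.1 and matplotlib 3.10.9. The procedure was tested on simulated counts. The T cell receptor libraries were not used here.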

Additional observations from a re-analysis of the deposited data

Results flagged for a closer look

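The change of Ankrd37 with anti-ACBP differed between clusters by the test of the difference itself, by 1.16 on the log2 scale for cluster 1 minus cluster 0 and by 1.13 for cluster 2 minus cluster 0. For 4 other genes, every anti-ACBP mouse lay above every isotype mouse in one cluster and below every isotype mouse in another, and these differences between clusters were not tested. The log2 fold change of Bnip3l was 0.34 higher in cluster 2 than in cluster 4, that of Gpi1 0.47 higher in cluster 5 than in cluster 4, and that of Pkm 0.42 and 0.33 higher in cluster 5 than in clusters 4 and 6. For Aldoa it was 0.8 higher in cluster 8 than in cluster 4 and 0.58 higher than in cluster 6. Groups of 3 mice are too small for a check of single outlying samples.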

How the results depend on the processing

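The 44 called changes and differences of single genes were recomputed 593 times, 0 changed direction and 158 no longer passed, 112 of them among 264 values with 1 library left out. The counts of members lower with anti-ACBP depended on the processing, and the cause was not tested. With DESeq2 they were 10 in cluster 0, 7 in cluster 1, 10 in cluster 3, 17 in cluster 4 and 14 over all cells, with 308, 119, 74, 131 and 932 of all genes called against 134, 20, 21, 93 and 297. With no filter they were 8, 14, 20, 5, 11 and 5 in clusters 1, 3, 4, 5, 6 and 7, with 264, 329, 429, 178, 414 and 135 of all genes against 20, 21, 93, 18, 185 and 29. With G1 cells only they were 1, 5 and 2 in clusters 1, 2 and 5 and 4 over all cells, and cluster 4 could not be fitted. With cells of DF1 TRUE only they were 6 in cluster 4, 0 in cluster 5 and 4 over all cells. Of all genes, 21, 14 and 178 were then called there, against 93, 18 and 297. With thinned cells they were 0, 0, 2 and 1 in clusters 1, 5, 6 and 7. All genes called in those clusters were then 24, 21, 85 and 16, against 20, 18, 185 and 29. With 1 library left out they ranged from 1 to 15, 0 to 4, 1 to 12, 2 to 10, 2 to 19, 0 to 1, 5 to 13, 1 to 4 and 0 to 0 in clusters 0 to 8, and from 0 to 12 over all cells. Members whose change differed between clusters 0 and 1 were 2 with RLE factors and 2 with DF1 TRUE cells, and with 1 library left out 1 to 3 there, 1 to 2 for clusters 0 and 2, and 0 to 2 for clusters 1 and 2. The median of the hypoxia genes was -0.32 in cluster 0 and -0.20 in cluster 2 without isotype 1 and -0.34 in cluster 1 without anti-ACBP 3, and that of the glycolysis genes was -0.20 in cluster 2 without isotype 3. The 9 changes that passed in every alternative run were those of Ankrd37, Pgam1 and Tpi1 in cluster 6, Hilpda in cluster 7, Hk2 in clusters 0 and 3, Pdk1 in cluster 2 and Slc2a1 in clusters 3 and 4. Cluster 8 had too few counts for 6 members.

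With the replicate number as a block, the counts were 11, 1, 12, 19 and 2 in clusters 0, 1, 3, 4 and 5, with 307, 10, 234, 159 and 65 of all genes called. The numbers were not taken to pair the samples, since not every pair deviated together: the correlations of their deviations were 0.34, 0.04 and -0.12 in cluster 0 and 0.35, 0.098 and -0.02 in cluster 3. The first pair lay between 0.03 in cluster 6 and 0.35 in cluster 3, the second between -0.17 and 0.098, and the third was below 0 in every cluster. In each cluster 1 of the 3 pairs correlated best with its own number.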
